A study of Mus musculus with 9 samples.

Results

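The 10 planar cell polarity and Ror genes were followed here through 9 mammary tumours of the BlgCre-NeuKI mouse, chosen by name from the 18484 genes in the files, and all 10 had reads in every tumour. They comprise the core planar cell polarity genes Celsr1, Celsr2, Celsr3, Vangl1, Vangl2, Prickle1 and Prickle2, the WNT receptors Ror1 and Ror2, and the pseudokinase Ptk7. All mice carried NeuKI, in which activated rat Neu sits in the Erbb2 locus behind a loxP-STOP cassette, together with Cre under the Blg (beta-lactoglobulin) promoter, which acts mainly in luminal oestrogen receptor-negative cells. The 5 high-amplified tumours, named for high Erbb2/Neu copy number by genomic qPCR, were all adenocarcinomas of no special type, AC(NST). They came from virgin mice in MS1213.1, MS1163.1 and MS1163.2 and from parous mice in MS1218.2 and MS1155.3. The study reports that MS1213.1 and MS1218.2 scored low by droplet digital PCR. Its exome copy numbers went with the qPCR result for MS1213.1 and with the droplet PCR result for MS1218.2. The 3 not/low-amplified epithelial tumours came from parous mice and were MS1210.1 and MS1349.1, both metaplastic adenosquamous carcinomas (ASQC), and the AC(NST) MS1166.1. The ninth tumour, MS1156.1, was a mammary sarcoma from a parous mouse and was labelled non/low for amplification. Total RNA from snap-frozen tissue gave 1 library per tumour, no mouse was treated, and the labels give no ages. All virgin tumours were high-amplified and both ASQC were not/low-amplified, so that amplification, parity and histotype cannot be told apart in these groups.

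Planar cell polarity is the alignment of cells within the plane of a sheet. Celsr cadherins bridge neighbouring cells, Vangl with Prickle collects on one side of a cell and Frizzled with Dishevelled on the other, and the actin cytoskeleton follows this asymmetry. Ror receptors bind non-canonical WNT ligands such as WNT5A, and PTK7 acts as a co-receptor of the same branch. In the mammary gland this branch has been tied to duct branching and to collective migration of tumour cells.

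Reads counted on genes lay between 12501225 and 23912429 per tumour. Erbb2, which checks the amplification labels, ranged from 5284 to 105019 normalised reads among the high-amplified tumours. It ranged from 1532 to 2783 among the not/low-amplified tumours and was at 1179.7 in the sarcoma. Reads were aligned to the mouse genome with at most 3 mismatches, so reads from the rat Neu sequence may be counted only in part. MS1163.1 and MS1163.2 bear the number of a single mouse, and MS1218.2 is the tumour that the study's methods except from high purity. The 8 luminal markers summed to between 47576 and 68939.5 normalised reads in the high-amplified group, from 98597 to 156097 in the not/low-amplified group and only 902 in the sarcoma. Of the 9 squamous markers none was at 0 in either ASQC tumour, where they summed to 7557 and 32973, while between 2 and 4 were at 0 in the other epithelial tumours, with sums between 73.5 and 1069. The 10 fibroblast markers summed to between 48169 and 403745 in the high-amplified tumours, highest in MS1218.2, and to between 54646 and 128435 in the not/low-amplified group. The 8 basal markers summed to between 1379 and 13991 in the high-amplified group and to between 13526 and 58795 in the other. These RNAs come from whole tissue, in which fewer cells of a type and less RNA per cell cannot be told apart, and the part of these markers in the values below was not tested.

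Values are normalised read counts, that is, reads per gene divided by 1 size factor per tumour. Per kilobase of exon, the median level over the 8 epithelial tumours ran from 869 reads for Ptk7 through 474 for Celsr2, 154 for Vangl1, 154 for Celsr1, 130.0 for Prickle2, 90.1 for Prickle1, 57.1 for Vangl2, 45.9 for Ror1 and 23.8 for Ror2 to 0.876 for Celsr3. Neighbours in this order had overlapping ranges over the 8 tumours, with 2 exceptions. The lowest tumour for Celsr2 (237) lay above the highest for Vangl1 (194), and the lowest for Ror2 (5.47) above the highest for Celsr3 (2.61). The spread differed greatly between genes. The highest of the 8 tumours exceeded the lowest by 2.00-fold for Vangl2, 2.09-fold for Vangl1 and 2.12-fold for Ptk7, against 8.84-fold for Ror1, 10.2-fold for Ror2 and 39.7-fold for Prickle2.

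**Figure D1:**
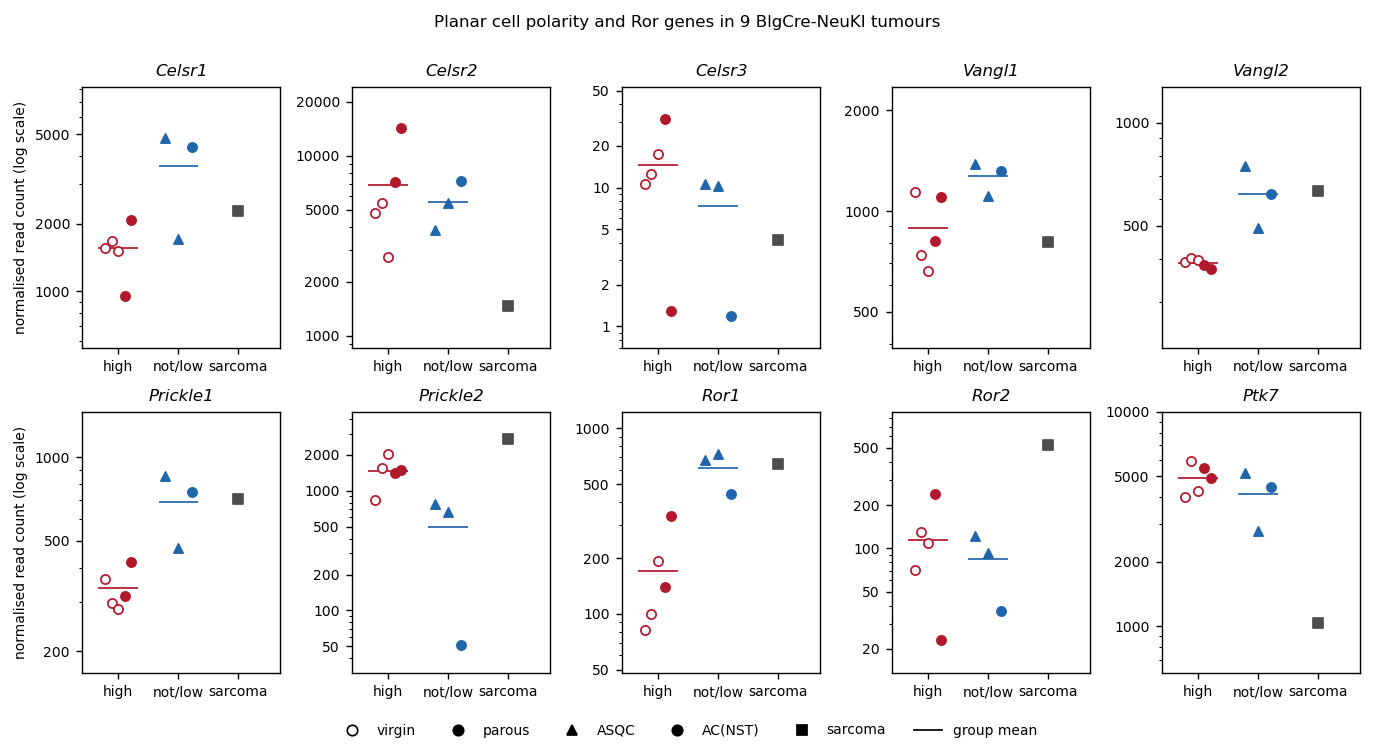
Normalised read count of each of the 10 genes (log axis) in each tumour, grouped as high-amplified, not/low-amplified and sarcoma; lines mark group means, open symbols virgin mice, triangles ASQC. Vangl2, Prickle1 and Ror1 lie lower in all 5 high-amplified tumours than in the 3 not/low-amplified ones, Prickle2 lies higher, and the other 6 genes overlap.

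The first comparison asked how the genes differed between high-amplified and not/low-amplified tumours, the classes between which the study compared its RNA-seq data. Ror1, Prickle1 and Vangl2 were lower in every high-amplified tumour than in any not/low-amplified tumour, and Prickle2 was higher in every one. Over all 14007 genes tested, 8.04% were lower without overlap and 7.55% higher without overlap. None of the 10 genes passed edgeR's quasi-likelihood test after Benjamini-Hochberg adjustment with a fold over 2, where 0.921% of all genes did. Erbb2 itself did not pass either, although its groups did not overlap (log2 fold change 4.16 ± 1.13, edgeR adjusted p = 0.0879). A gene that was not called may therefore still differ. At an unadjusted p under 0.05 there were 4 of 10 (Ror1, Prickle1, Celsr1 and Vangl2), against 22.8% of all genes. The median log2 fold change was -0.11 over the 10 genes and 0.02 over all genes tested.

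Celsr1 encodes a seven-pass cadherin that couples polarity between neighbouring cells. Among the high-amplified tumours, MS1213.1 had 1555 normalised reads, MS1163.1 had 1679.9, MS1163.2 had 1509, MS1218.2 had 952 and MS1155.3 had 2073. Among the not/low-amplified ones, MS1210.1 had 4799, MS1349.1 had 1706 and MS1166.1 had 4379.8. The groups overlapped only through MS1349.1, which lay below MS1155.3. The high-amplified mean was 1554 ± 403 (SD, n = 5) and the not/low-amplified mean 3628 ± 1678 (SD, n = 3), which gave a log2 fold change of -1.20 ± 0.36 (SE) with an edgeR adjusted p of 0.109. Its paralogue Celsr2 was among the most abundant of the 10 genes, with 4829, 5451, 2723, 7161 and 14239 reads in the high-amplified tumours in the same order and 3865, 5464 and 7220.3 in the not/low-amplified ones. MS1155.3 was the highest and MS1163.2 the lowest, both high-amplified, and the log2 fold change was 0.34 ± 0.50 (edgeR adjusted p = 0.71). Without MS1155.3 it was -0.10. Celsr3, known mainly from axon guidance, was counted between 1 and 34 times per library, with 1 read each in MS1155.3 and MS1166.1, and no difference was detectable at this depth (log2 fold change 0.97 ± 0.94, edgeR adjusted p = 0.56).

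Vangl1 and Vangl2 encode the four-pass membrane proteins that anchor one side of the polarity complex. Vangl1 had between 662 and 1141 reads in the high-amplified tumours and 1386, 1108 and 1319 in MS1210.1, MS1349.1 and MS1166.1, so that MS1349.1 and MS1213.1 overlapped (log2 fold change -0.49 ± 0.26, edgeR adjusted p = 0.287). Vangl2 had 392, 402, 396, 385 and 375 reads in MS1213.1, MS1163.1, MS1163.2, MS1218.2 and MS1155.3, and 748, 494 and 621 in MS1210.1, MS1349.1 and MS1166.1. The 5 high-amplified tumours lay within 1.07-fold of each other, whereas the 3 not/low-amplified tumours spanned 1.52-fold and all lay above them. The means were 390.0 ± 10.5 and 621 ± 127, a log2 fold change of -0.65 ± 0.23 (edgeR unadjusted p = 0.0175, adjusted p = 0.14).

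Prickle proteins are LIM-domain partners of Vangl in the cytoplasm. Prickle1 had 363, 299, 285, 318 and 419.9 reads in the high-amplified tumours in the same order and 857, 469.8 and 747 in MS1210.1, MS1349.1 and MS1166.1. No high-amplified tumour reached the lowest not/low-amplified one, with means of 337 ± 55.1 and 691 ± 200 and a log2 fold change of -1.02 ± 0.27 (edgeR unadjusted p = 0.00424, adjusted p = 0.0868). Prickle2 ran the other way. It had 837, 1559, 2032, 1407 and 1498 reads in MS1213.1, MS1163.1, MS1163.2, MS1218.2 and MS1155.3, and 782, 666 and 51.1 in MS1210.1, MS1349.1 and MS1166.1. The groups were separated by the small gap between MS1213.1 and MS1210.1, while MS1166.1, with 43 reads counted, lay 13.0-fold below the next lowest tumour. The log2 fold change was 1.55 ± 0.70 (edgeR adjusted p = 0.224), and 1.02 without MS1166.1 (edgeR adjusted p = 0.223).

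Ror1 and Ror2 encode receptor tyrosine kinase-like proteins with an extracellular WNT-binding domain. Ror1 was read 81.9 times in MS1213.1 and 99.7 times in MS1163.1, while MS1163.2 had 193 reads, MS1218.2 had 139.8 and MS1155.3 had 336. Of the not/low-amplified tumours, MS1210.1 had 671, MS1349.1 had 723 and MS1166.1 had 445. Every not/low-amplified tumour exceeded every high-amplified one, and the high-amplified tumours themselves spanned 4.11-fold. The means were 170.0 ± 102 and 613 ± 148, a log2 fold change of -1.84 ± 0.46, which is 3.58-fold and the largest among the 10 genes in this comparison (edgeR unadjusted p = 0.00255, adjusted p = 0.0782). Ror2 gave 71.3, 130.1, 108, 237 and 23.2 reads in the high-amplified tumours in the same order, and 122, 93.5 and 36.9 in MS1210.1, MS1349.1 and MS1166.1. The high-amplified group held both the highest and the lowest tumour, and the log2 fold change was 0.44 ± 0.70 (edgeR adjusted p = 0.731). MS1218.2 had the highest Ror2 value, and the log2 fold change without it was -0.01. It also had the highest fibroblast marker sum of the 8, and whether these are linked was not tested. Tumours did not always rank alike by both: MS1163.1 had more Ror2 reads than MS1213.1 (130.1 against 71.3) but a lower sum (78299 against 128923).

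Ptk7, a catalytically inactive receptor kinase, had the highest median level per kilobase of the 10 genes. It gave between 3996 and 5898 reads in the high-amplified tumours and 5196, 2788 and 4448.8 in MS1210.1, MS1349.1 and MS1166.1, with overlapping groups (log2 fold change 0.27 ± 0.29, edgeR adjusted p = 0.606).

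**Figure D2:**
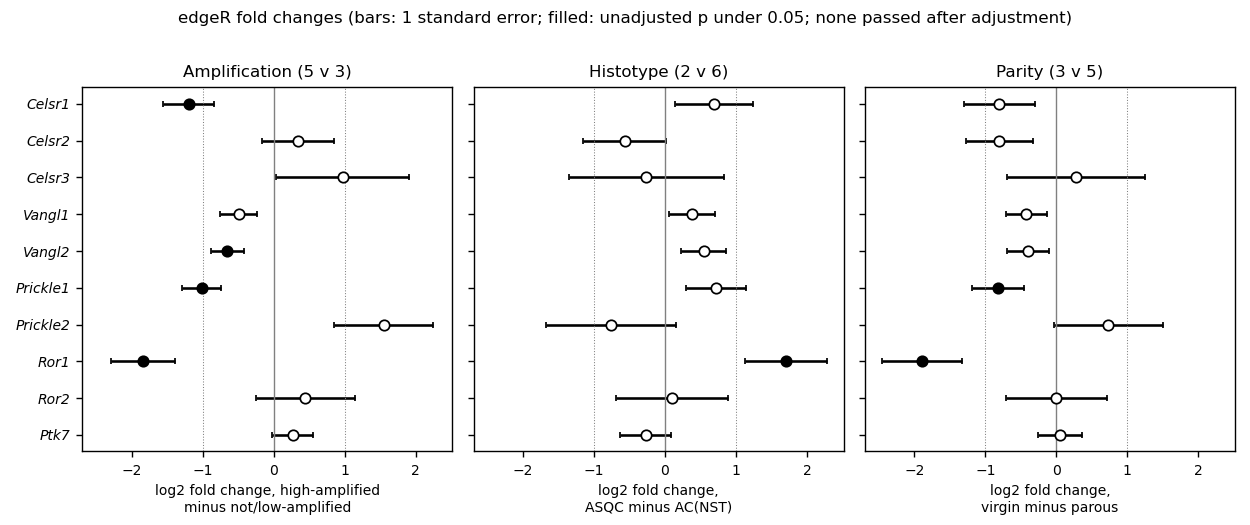
Log2 fold change of each gene by edgeR in the 3 comparisons, with bars of 1 standard error; filled points have an unadjusted p under 0.05. For amplification, Ror1 (-1.84), Celsr1 (-1.20), Prickle1 (-1.02) and Vangl2 (-0.65) are filled, and no gene passed after adjustment in any panel.

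The calls depended on the test. DESeq2 on the same counts called Ror1 (adjusted p = 0.00515), Prickle1 (adjusted p = 0.0137) and Celsr1 (adjusted p = 0.0362), 3 of 10, where it called 10.8% of all genes with an adjusted p. The study had applied DESeq2 to these same tumours, so these calls are not independent of its own. With parity as a covariate the edgeR log2 fold change was -1.35 for Ror1 (adjusted p = 0.316) and -0.88 for Prickle1 (adjusted p = 0.32), and among the AC(NST) tumours alone, 5 against the single MS1166.1, Prickle2 was called at 4.81 (edgeR adjusted p = 0.0437), a fit in which the lone tumour is assumed to vary like the others. Over all alternatives the adjusted p ran from 0.00515 to 0.468 for Ror1, from 0.0137 to 0.490 for Prickle1, from 0.0362 to 0.490 for Celsr1 and from 0.0437 to 0.825 for Prickle2, the lowest from DESeq2 except for Prickle2. Leaving out a tumour, or averaging tumours of the same group, can only add genes without overlap, so the 4 genes had to stay. None of the rest of the 10 joined them without MS1218.2, when 14.1% of all genes were lower and 16.5% higher without overlap. None joined with both MS1163 tumours averaged (9.78% lower and 9.27% higher) or with MS1166.1 left out (11.8% and 10.7%).

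Ror1 lies on the + strand at chr4:100095791-100444765, and Prickle1 at chr15:93499114-93595891, Prickle2 at chr6:92370908-92706155 and Vangl2 at chr1:172000960-172028444 lie on the - strand (GRCm38). RefSeq start windows were matched for 8 of the 10 genes, and those of Ror1, Prickle1 and Prickle2 are shown because these genes separated the groups in opposite directions. The 250 bases before each RefSeq transcription start (GRCm38.p6) were searched on both strands for the TCF/LEF core CTTTGNN, where each N was A or T; TCF/LEF are the factors through which canonical WNT signalling acts. Matches are in capitals.
Ror1, chr4:100095541-100095790 (+ strand): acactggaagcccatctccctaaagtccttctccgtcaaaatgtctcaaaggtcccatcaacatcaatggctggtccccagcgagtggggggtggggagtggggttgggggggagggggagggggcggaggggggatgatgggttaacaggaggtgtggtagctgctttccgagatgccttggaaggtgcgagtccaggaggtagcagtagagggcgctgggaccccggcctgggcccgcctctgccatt
Prickle1, chr15:93595903-93596152 (- strand): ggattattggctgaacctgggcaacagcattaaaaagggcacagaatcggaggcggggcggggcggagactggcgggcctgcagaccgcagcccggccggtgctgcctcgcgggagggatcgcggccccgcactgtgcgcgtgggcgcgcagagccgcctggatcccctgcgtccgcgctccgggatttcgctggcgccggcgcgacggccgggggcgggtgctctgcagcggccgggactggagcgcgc
Prickle2 outer start, chr6:92706185-92706434 (- strand): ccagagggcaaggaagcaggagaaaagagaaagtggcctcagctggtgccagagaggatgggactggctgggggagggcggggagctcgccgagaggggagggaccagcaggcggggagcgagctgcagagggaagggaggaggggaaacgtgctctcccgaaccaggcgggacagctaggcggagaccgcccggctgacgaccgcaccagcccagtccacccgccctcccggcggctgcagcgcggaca
Prickle2 inner start, chr6:92567367-92567616 (- strand): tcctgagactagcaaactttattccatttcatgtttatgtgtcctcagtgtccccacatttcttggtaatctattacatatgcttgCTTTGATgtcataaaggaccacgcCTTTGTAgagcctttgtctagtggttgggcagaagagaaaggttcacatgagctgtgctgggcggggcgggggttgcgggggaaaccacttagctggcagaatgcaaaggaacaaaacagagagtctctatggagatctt
Neither the Ror1 nor the Prickle1 window held a match, nor did the Prickle2 start at its outer end. Of the 3 inner Prickle2 starts, the one shown was picked because it held matches, 2 in all, at 164 and 140 bases before the start, and the other two held 0. Of 32851 mouse starts, 14.8% held at least 1 match. CpG dinucleotides numbered 8 before Ror1 and 34 before the Prickle1 start shown, with 16 before its second start, which also held 0 matches. They numbered 18 before the outer Prickle2 start and 4, 5 and 4 before the inner ones, against a median of 6 over all starts. The counts are per gene, so they do not tell the 4 listed Prickle2 starts apart, and a match is a description of letters, not of binding.

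The second comparison set the 2 ASQC tumours against the 6 AC(NST) tumours. The 671 and 723 Ror1 reads in MS1210.1 and MS1349.1 exceeded all 6 AC(NST) tumours, of which MS1166.1 was the highest at 445. The Ror1 log2 fold change was 1.71 ± 0.57 (edgeR unadjusted p = 0.0143, adjusted p = 0.426). Ror1 was the only one of the 10 genes whose histotype groups did not overlap, where 10.3% of all genes did not. It was also the only one with an edgeR unadjusted p under 0.05, where 8.72% of all genes had one. Each of these shares, 1 of 10, was near that of all genes. EdgeR called 0 of the 10 genes, against 0.236% of all genes, and DESeq2 also called 0, where it called 3.44% of genes. The ASQC pair lay close together for Ror1, Prickle2 (782 and 666) and Celsr3 (10.5 and 10.2) and farther apart for others. Celsr1 was 4799 in MS1210.1 and 1706 in MS1349.1, Prickle1 was 857 and 469.8, and Ptk7 was 5196 and 2788. In this pair MS1210.1 was the higher for 8 of the genes and MS1349.1 for Celsr2 and Ror1.

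The third comparison set 3 virgin against 5 parous tumours. MS1163.1 and MS1163.2, both virgin, bear the number of a single mouse, and the parity tests treated them as separate tumours. No parity fit joined them. The Ror1 log2 fold change was -1.76 without MS1163.1 (edgeR adjusted p = 0.535) and -2.33 without MS1163.2 (edgeR adjusted p = 0.663). Ror1 had 81.9, 99.7 and 193 reads in the virgin tumours and between 139.8 and 723 in the parous ones, overlapping only through MS1218.2 (log2 fold change -1.90 ± 0.57, edgeR unadjusted p = 0.00788, adjusted p = 0.298). Prickle1 had 363, 299 and 285 reads against between 318 and 857, with a log2 fold change of -0.82 ± 0.37 (edgeR unadjusted p = 0.0497, adjusted p = 0.353). These were the 2 of 10 genes with an unadjusted p under 0.05, against 14.2% of all genes, and edgeR called 0% of genes after adjustment, that is, 0 of 14007, with 1984 at an unadjusted p under 0.05. DESeq2 called Ror1 alone (adjusted p = 0.0317, with a range over the alternatives up to 0.727), where it called 3.57% of genes. None of the 10 genes separated virgin from parous tumours without overlap, against 9.25% of all genes. Within the 5 high-amplified tumours, 3 virgin against 2 parous, edgeR called 0 of the 10 genes. The Ror1 log2 fold change there was -0.95 ± 0.59 (edgeR adjusted p = 0.727), and that of Prickle1 was -0.25 ± 0.39 (edgeR adjusted p = 0.839). Celsr2 was the one gene with an unadjusted p under 0.05 there, at -1.32 ± 0.52 (edgeR unadjusted p = 0.0346, adjusted p = 0.727), against -0.80 ± 0.47 over all 8 tumours. Vangl2 was at 0.03 ± 0.37 (edgeR adjusted p = 0.979), against -0.40 ± 0.30 over all 8.

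MS1166.1 joins the AC(NST) histology of the high-amplified tumours with the amplification label of the ASQC tumours, so its place was read gene by gene, without a test. It lay above all 5 high-amplified tumours for 5 genes, namely Celsr1, Vangl1, Vangl2, Prickle1 and Ror1, and for the first 4 of these it lay between the 2 ASQC tumours. Its Ror1 value of 445 fell between the highest high-amplified tumour at 336 and the lower ASQC tumour at 671. For Vangl2, Prickle1 and Ror1, the place above the high-amplified tumours repeats the lack of overlap given earlier. No share of all genes was counted for places above the high-amplified tumours or between the ASQC tumours. MS1166.1 lay within the high-amplified range for Celsr2, Ror2 and Ptk7 and below that range for Prickle2 and Celsr3. For the last 2 it was also below the ASQC pair, so that 2 of 10 genes lay outside the range of the other 7 epithelial tumours, where 43.1% of all genes did. For Celsr3 this rests on a single read in MS1166.1 and another in MS1155.3, whereas Prickle2 was counted 43 times in MS1166.1 and at least 869 times in the others.

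The sarcoma is a single tumour and was set beside the range of the 8 epithelial tumours, without a test. Its luminal markers summed to 902 against at least 47576, its fibroblast markers to 681809 against at most 403745, its skeletal muscle markers to 48175 against at most 3256, and its neural and Schwann cell markers to 42553 against at most 8032. Measured against the highest epithelial tumour, Ror2 had the largest upward shift, with 524 reads against 237, and Prickle2 followed with 2710.3 against 2032. Celsr2 and Ptk7 were below all 8, with 1455 against at least 2723 and 1033 against at least 2788. Ptk7 was thus 4.53-fold, and Celsr2 3.75-fold, under the epithelial median. The other 6 genes lay inside the range, making 4 of 10 outside it, against 42.3% of all genes. For Ror1 (646), Prickle1 (706), Vangl2 (630.4) and Celsr1 (2289.6) the sarcoma fell among the not/low-amplified tumours and above all 5 high-amplified ones. Its Vangl1 value (805) lay within the high-amplified range and below all not/low-amplified tumours. Its Prickle2 value lay farther from the not/low-amplified tumours than from the high-amplified ones. No share of all genes was counted for these places.

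**Figure D3:**
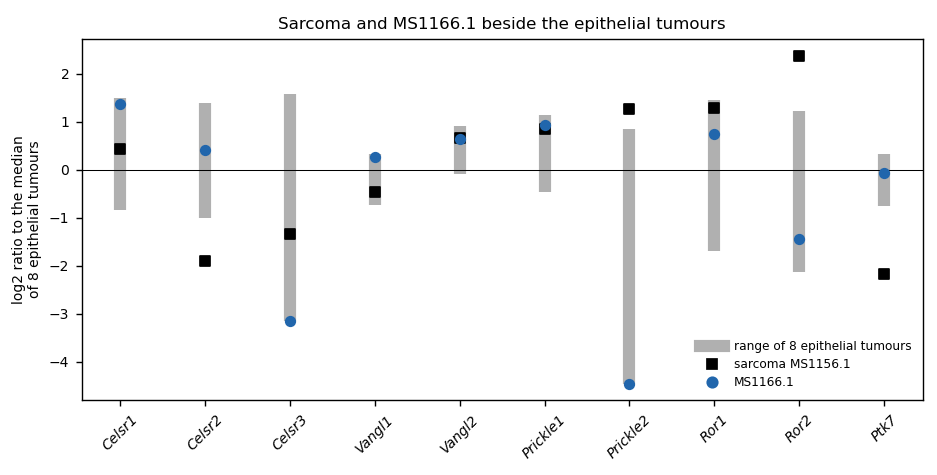
Log2 ratio of the sarcoma (squares) and MS1166.1 (circles) to the median of the 8 epithelial tumours for each gene, with the epithelial range as a grey bar. The sarcoma leaves the bar upward for Prickle2 and Ror2 and downward for Celsr2 and Ptk7, and MS1166.1 forms the lower end of the bar for Prickle2 (51.1 reads) and Celsr3.

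Paralogues were also compared within each tumour, per kilobase of exon, which removes the size factor. Prickle2 exceeded Prickle1 in all 5 high-amplified tumours, by 1.16-fold (MS1213.1), 2.62-fold (MS1163.1), 3.59-fold (MS1163.2), 2.23-fold (MS1218.2) and 1.80-fold (MS1155.3). In the not/low-amplified tumours Prickle1 was the higher, by 2.18-fold (MS1210.1), 1.40-fold (MS1349.1) and 29.0-fold (MS1166.1). Per kilobase, the leading Prickle paralogue therefore differed between the groups in all 8 tumours, and the sarcoma, at 1.93-fold in favour of Prickle2, stood with the high-amplified tumours. Without division by exon length (8631 bases for Prickle2 and 4345 for Prickle1), Prickle2 exceeded Prickle1 in MS1349.1 too, at 666 against 469.8 reads. Which paralogue leads thus depends on the lengths used, whereas the order of the tumours by this ratio does not. This ratio follows from the values already given and is a description.

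The Ror pair split otherwise. Ror1 exceeded Ror2 by 4.04-fold (MS1210.1), 5.69-fold (MS1349.1) and 8.88-fold (MS1166.1), and by 10.7-fold in the parous high-amplified tumour MS1155.3, where Ror2 was lowest. In the other 4 high-amplified tumours the ratio of Ror1 to Ror2 was 0.846 (MS1213.1), 0.564 (MS1163.1), 1.31 (MS1163.2) and 0.434 (MS1218.2), and in the sarcoma it was 0.907. Vangl1 exceeded Vangl2 in every tumour, by between 1.63-fold and 2.86-fold in the 8 epithelial tumours and by 1.25-fold in the sarcoma. Celsr2 exceeded Celsr1 in 7 of the 8 epithelial tumours, up to 7.19-fold in MS1218.2, and Celsr1 was the higher in MS1210.1 (1.30-fold) and in the sarcoma (1.65-fold).

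**Figure D4:**
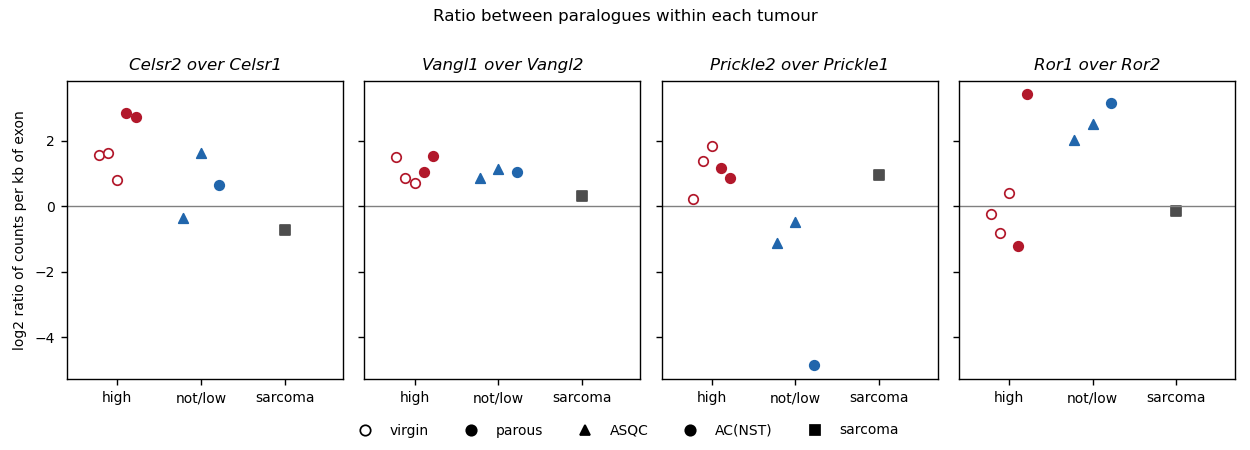
Log2 ratio of read counts per kilobase of exon between paralogues in each tumour, by group; 0 means equal levels, open symbols are virgin mice and triangles ASQC. The Prickle2 to Prickle1 ratio is above 0 in the 5 high-amplified tumours and the sarcoma and below 0 in the 3 not/low-amplified tumours, whereas the Vangl ratio stays above 0 throughout.

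The rest of the pathway was read from 6 lists of 45 further genes, of which 43 passed the filter on counts. EdgeR called 0 of the 43 in any of the 3 comparisons, against 0.921% of all genes for amplification, 0.236% for histotype and 0% for parity. At an unadjusted p under 0.05 in the amplification comparison there were 10 of 43, with 4 higher and 6 lower in the high-amplified tumours, a share near the 22.8% of all genes. DESeq2 called 5 for amplification (Nos1ap, Ankrd6, Fjx1, Dchs2 and Wnt5b), near its 10.8% of all genes. It called 2 for histotype, Wdpcp (adjusted p = 0.00352) and Fjx1 (adjusted p = 0.026), against 3.44% of all genes, and 1 for parity, Cdc42 (adjusted p = 0.0192), against 3.57%. Wdpcp is named after its values were seen. With an edgeR unadjusted p under 0.05 for amplification, there were 0 of 6 among Frizzled receptors and Dishevelled adaptors (Fzd3, Fzd6, Fzd7 and Dvl1 to Dvl3), and among the ciliary polarity effectors (Intu, Fuz, Wdpcp and Rsg1) 0 of 4. Among the other core and regulatory genes, Nos1ap, which encodes an adaptor that binds Scribble and Vangl, had between 382 and 1854 reads in the high-amplified and between 158 and 247 in the not/low-amplified group (log2 fold change 2.60 ± 0.51, edgeR unadjusted p = 0.000518, adjusted p = 0.051). Ankrd6, a vertebrate relative of Diego, had between 47.7 and 81.9 against between 1.19 and 29.2 (1.98 ± 0.79, edgeR adjusted p = 0.178). Smurf1, a ubiquitin ligase that acts on Prickle, and Gipc1, a trafficking adaptor of Vangl2, had log2 fold changes of 0.59 ± 0.21 (edgeR adjusted p = 0.146) and -0.70 ± 0.31 (edgeR adjusted p = 0.216).

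In the Fat and Dachsous system, which orients polarity across a tissue, Fjx1 had between 31.5 and 106 reads in the high-amplified and between 149.9 and 753 in the not/low-amplified group (log2 fold change -2.44 ± 0.63, edgeR adjusted p = 0.0826). Dchs2, a Dachsous cadherin, had a log2 fold change of -1.96 ± 0.64 (edgeR adjusted p = 0.124) and its highest value, 1149, in MS1166.1. Among ligands and co-receptors, Wnt5b had between 103 and 1160.5 against between 1183 and 5840.5 reads (-2.38 ± 0.78, edgeR adjusted p = 0.127), and the glypican Gpc4 between 1381 and 2483 against between 712 and 1162 (0.97 ± 0.28, edgeR adjusted p = 0.0958). Of the actin effectors, the small GTPases Cdc42 and Rhoa had log2 fold changes of -0.97 ± 0.30 (edgeR adjusted p = 0.118) and -0.67 ± 0.25 (edgeR adjusted p = 0.157), with no overlap between the groups for either. The ligand of Ror receptors Wnt5a, named here after its values were seen, had 2589.7 and 5728 reads in the ASQC tumours against between 92.8 and 1664 in the AC(NST) tumours (log2 fold change 2.62 ± 0.86, edgeR unadjusted p = 0.0129, adjusted p = 0.413). MS1166.1 had the lowest Wnt5a value of the 8 and the highest Wnt5b value, 92.8 and 5840.5.

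Across the 8 epithelial tumours, the genes most like each of the 10 were listed by Pearson's r of log2 normalised counts, as a description of 8 points that share their libraries. They were Cmpk1 (0.963), Napepld (0.962) and Ndufaf4 (0.956) for Ror1, and Pgm1 (0.974), Rnd3 (0.965) and Pkp1 (0.956) for Prickle1. For Vangl2 they were Ywhaq (0.974), Srd5a1 (0.972) and Rab10 (0.972), and for Vangl1 they were Smarcd2 (0.973), Hip1r (0.967) and Klk11 (0.967). Celsr1 was most like Grpel2 (0.983), Fut9 (0.967) and Srd5a1 (0.944), so that Srd5a1 stood in the lists of both Celsr1 and Vangl2. Prickle2 was most like Ptpre (0.987), Tmem255a (0.984) and Fam89a (0.982), and Celsr2 most like H2-Q7 (0.948), Parp10 (0.920) and Gprc5c (0.914). Celsr3 had Camk2a (0.977), Wnt16 (0.961) and Kdelc2 (0.960), and Ror2 had Slit1 (0.959), Celsr3 (0.950) and C1qtnf6 (0.948). Ptk7 had the weakest matches, Ptpra (0.871), Dnaja4 (0.865) and Gm10093 (0.863). Among the 10 genes themselves the highest values were 0.950 for Celsr3 with Ror2, 0.931 for Vangl2 with Prickle1 and 0.914 for Celsr1 with Prickle1. Celsr3 was counted between 1 and 34 times per library, so its values here rest on few reads. Celsr1 and Prickle1 both lie on chromosome 15, at 85898929 to 86033777 and at 93499114 to 93595891 (GRCm38). Celsr2 and Vangl1 share chromosome 3, at 108390851 to 108415552 and at 102153583 to 102204693, and their value was 0.286.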

How the data were processed

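Total RNA was depleted of ribosomal RNA, made into strand-specific libraries and sequenced in pairs. Per the study's methods, the authors aligned reads with STAR to mouse build 38 (at most 3 mismatches, unique positions) and obtained deposited counts per gene with HTSeq-count; its strand option and the versions are not given in the sources used here. The deposited signal values of the 8 epithelial tumours are these counts divided by 1 size factor per tumour (0.776 to 1.42), equal to DESeq2's median-of-ratios factors. The sarcoma was put on that scale by a factor computed over all 9 tumours, and its place was counted with factors over all 9. Intervals and tests cover the spread between tumours only.

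Counts were compared with edgeR 4.0.16 (R 4.3.3; TMM, glmQLFit, glmQLFTest, Benjamini-Hochberg adjustment) over 14007 genes, requiring 10 or more counts in 3 or more of the 8 tumours; a call needed an adjusted p under 0.05 and a fold over 2. Fold changes are log2, first group minus second, with SE computed as the absolute log2 fold change over the square root of F. No covariate was used. The scripts were tested on simulated data. Exon lengths and positions came from GENCODE M21 (GRCm38), promoters from RefSeq (GRCm38.p6). DESeq2 1.42.0, limma 3.58.1 (pseudocounts 1 and 10), other scalings, filters and sample sets were alternatives. All 10 genes are named; of other lists, edgeR calls and at most 4 genes a list with the largest amplification change at unadjusted p under 0.05. The 10 genes and the lists were chosen with earlier results of these data known. No exon of the 10 genes overlapped another gene in the files.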

Additional observations from a re-analysis of the deposited data

Results flagged for a closer look

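A sample was singled out where its gap to the nearest other tumour of its group, divided by the group's range on the log2 scale, exceeded Dixon's 95% critical value. This was applied to the 10 genes in 3 groups, 30 tests in all, of which 3 were exceeded; chance exceeds about 1 in 20. In each of the 3 the tumour was MS1166.1. Its Prickle2 value of 51.1 normalised reads was the lowest of the 6 AC(NST) tumours, with a ratio of 0.758 against 0.625, and the lowest of the 5 parous tumours, with 0.759 against 0.71. Its Vangl2 value of 621 was the highest of the 6 AC(NST) tumours, with 0.862 against 0.625. The groups share tumours, so these are not independent, and the AC(NST) group joins both amplification classes.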

How the results depend on the processing

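With edgeR or limma, 0 of the 10 genes were called for amplification under any scaling, filter, covariate or left-out tumour tried, except Prickle2 (1 gene) among AC(NST) tumours alone. DESeq2 called 3 for amplification, 1 for parity and 0 for histotype. Amplification calls over all genes were 129, against 1601 by DESeq2, 229 without a filter, 210 with limma at a pseudocount of 10, 0 with parity as a covariate, 0 in parous tumours alone, 40 in AC(NST) alone, 31 with the MS1163 tumours summed, 3 with the sarcoma added, and between 1 and 1255 with 1 tumour left out, the highest without MS1218.2. Histotype calls were 33, against 522 by DESeq2, 171 without a filter and between 4 and 84 with 1 tumour left out; parity calls were 0, against 516 and between 0 and 147, the highest without MS1155.3.

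Ror1, Prickle1, Vangl2, Celsr1, Vangl1, Prickle2, Celsr3 and Ptk7 kept their direction for amplification under every alternative in which they were tested. Celsr3 failed the filter on a mean count of at least 50 and had no value there. Celsr2 turned to -0.0933 in AC(NST) alone and ranged from -0.10 to 0.56 with 1 tumour left out, and Ror2 turned to -0.74 with the sarcoma added and ranged from -0.0141 to 0.82. For histotype the left-out ranges crossed 0 for Celsr1 (-0.28 to 1.26), Celsr3 (-0.50 to 0.26), Ror2 (-0.15 to 0.55) and Ptk7 (-0.83 to 0.10). For parity they did so for Celsr3 (-0.0072 to 1.14), Ror2 (-0.25 to 0.58) and Ptk7 (-0.14 to 0.15). Within high-amplified tumours alone the parity values turned to 0.0465 for Celsr1, -0.36 for Celsr3, 0.0336 for Vangl2, -0.0089 for Prickle2, -0.39 for Ror2 and -0.17 for Ptk7. The causes were not tested. The sarcoma lay outside the epithelial range for 4 genes with either scaling. The choices of MS1218.2, MS1163 and MS1166.1 for the overlap counts, and the deposited scale for the sarcoma, were added after seeing the data. No paired analysis was possible because, by the mouse numbers, no mouse gave tumours to both groups of a comparison. With 1 to 34 reads per library, depth limits Celsr3.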
